A study of Mus musculus with 6 samples.

Results

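Transcript levels of 10 interferon-inducible GTPase genes were examined in mouse endothelial cells with altered Dot1l, the H3K79 methyltransferase. The 10 genes were chosen by name from the 24421 gene symbols of the count table. They comprise 6 guanylate binding proteins (GBPs: Gbp2, Gbp3, Gbp4, Gbp5, Gbp6 and Gbp7) and 4 immunity related GTPases (IRGs: Irgm1, Irgm2, Igtp and Iigp1). All 10 had reads in all 6 RNA-sequencing libraries. The study asked how loss or gain of Dot1l alters the transcriptome of blood endothelial cells (BECs) and lymphatic endothelial cells (LECs), and each condition was represented by 1 library. The cKO BECs came from the skin of Tie2-Cre(+); Dot1l 2f/2f embryos at E15.5, and the skin Cont BECs, labelled wild type, from Tie2-Cre(−); Dot1l 2f/2f littermates, so that both carried the floxed alleles. These cells were left after depletion of F4/80, CD45 and Lyve1 positive cells, with CD31 given as their positive marker, and RNA of several embryos was pooled per library. Tie2-Cre acts in endothelium and also in blood lineages. The OE-BECs (line CRL-2581, from embryonic yolk sac) and OE-LECs (C57-6064L, from embryonic dermis) were transduced with a lentivirus carrying dead Cas9 fused to VP64, guides against the Dot1l promoter and EGFP. The cultured Cont BECs and Cont LECs received the empty lentivirus, EGFP positive cells were sorted, and cells of several flasks were harvested per library.

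GBPs and IRGs are large GTPases of cell-autonomous immunity. Interferon gamma, which acts mainly at GAS elements, and type I interferon, which acts mainly at ISRE elements, induce them in many cell types, endothelium included. The proteins assemble on membranes of vacuoles that hold parasites or bacteria and help to break these open, and regulatory IRGs keep the effector proteins off the membranes of the host cell itself.

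The promoters are shown first, as a description of the genes. RefSeq windows of the GRCm38.p6 assembly, from 250 bases before to 50 bases after a transcription start, held an entry for 7 of the 10 genes. Gbp4, Gbp6 and Iigp1 had none. All 7 genes with an entry were higher in OE-LECs (below), so no window of a level member could be set beside theirs. A link between these letters and the ratios was not tested. The ISRE letters, GAAA and GAAA with any 2 bases between them, searched on both strands (TTTC and TTTC on the other), were present in 7 of these 7 genes, against 3.44% of all 32851 promoters and 3.99% of all 27025 genes with an entry. They are not particular to these genes. Other GBP, IRG and GVIN genes with an entry held them in 6 of 10. Genes induced mainly by type I interferon held them in 10 of 16, and those induced mainly by interferon gamma in 1 of 11. The GAS letters TTCNNNGAA, which read the same on both strands, were present in 4 of the 7, against 8.3% of all promoters and 9.55% of genes. In the other 3 sets they were present in 3 of 10, 4 of 16 and 2 of 11. A match is a string of letters in this window and not a measured binding site. Each line gives 60 bases around the matches, written in the direction of transcription, with the ISRE letters in capitals.
Gbp2, chr3:142620579-142620638, plus strand: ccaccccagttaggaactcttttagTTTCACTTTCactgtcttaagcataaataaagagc
Gbp3, chr3:142559977-142560036, plus strand: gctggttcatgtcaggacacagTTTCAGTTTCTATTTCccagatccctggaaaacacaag
Gbp5, chr3:142496744-142496803, plus strand: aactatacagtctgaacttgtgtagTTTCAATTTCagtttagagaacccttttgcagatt
Gbp7, chr3:142530258-142530317, plus strand: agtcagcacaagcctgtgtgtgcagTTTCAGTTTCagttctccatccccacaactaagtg
Irgm1, chr11:48871413-48871472, minus strand: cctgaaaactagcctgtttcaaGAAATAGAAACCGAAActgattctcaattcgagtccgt
Irgm2, chr11:58214888-58214947, plus strand: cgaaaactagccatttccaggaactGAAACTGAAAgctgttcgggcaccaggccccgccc
Igtp, chr11:58199497-58199556, plus strand: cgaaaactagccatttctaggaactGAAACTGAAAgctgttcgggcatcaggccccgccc
The match began 59 bases before the transcription start in Gbp2, 45 in Gbp3, 53 in Gbp7, 30 in Irgm1, 64 in Irgm2 and 34 in Igtp, and farther off, at 165 bases, in Gbp5. In the 4 GBP promoters the letters read as TTTC, and in the 3 IRG promoters as GAAA. Gbp3 and Irgm1 each held 2 overlapping matches, and a second annotated start of Gbp3 held none. The windows of Igtp and Irgm2 were identical at 58 of 60 bases.

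The coding sequences divide the genes in a second way. GTPases of both families hold the nucleotide through a P-loop whose seventh residue is a lysine in the GBPs and in effector IRGs, and a methionine in the regulatory IRGs. The 24 bases of this loop, read from the longest open reading frame of GENCODE M21 transcripts, are given with the seventh codon in capitals for 9 of the 10 genes.
Irgm1, Irgm2 and Igtp (the same bases in all 3): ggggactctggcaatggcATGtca
Gbp2: ggcctctaccgcacaggcAAAtcc
Gbp3: ggtttatatcgtacagggAAGtcc
Gbp4: ggatggtcccatacagggAAGtcc
Gbp5: ggtctttatcgcacaggcAAAtcc
Gbp6: ggattgtaccgtacagggAAGtcc
Gbp7: ggactataccgtacgggaAAAtcc
The methionine codon is at position 89 of Irgm1 and Irgm2 and at position 97 of Igtp. The lysine codon of the GBPs is at position 45 in Gbp3, 49 in Gbp4 and Gbp6, and 51 in Gbp2, Gbp5 and Gbp7. Igtp and Irgm2 thus share bases both at the promoter and in the coding sequence, and 7.8% and 4.78% of their 75-base stretches, respectively, occur in another gene.

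The libraries held 8863349 to 11084686 counts in skin and 13933651 to 31032461 in culture. Dot1l itself was counted at 762 reads in skin Cont BECs and 944 in cKO BECs, which is a log2 ratio of -0.07 (95% interval -0.21 to 0.07). Counts over the whole gene do not show the floxed part alone, and the direction given for the library labelled cKO is that of its label. The study also measured Dot1l in cKO BECs by RT-qPCR without replicates, and reported that this bore out the knockout. Those values are not analysed here. In culture Dot1l was higher after transduction with the activating vector, with log2 ratios of 1.48 (1.40 to 1.55) in OE-BECs and 1.20 (1.13 to 1.27) in OE-LECs. Lymphatic markers were mixed in the libraries named BEC and LEC. Prox1, the defining transcription factor of lymphatic identity, and Pdpn had no read in either LEC library, and Reln, Mmrn1 and Ccl21a were at or near 0, while Lyve1 was at 1998 CPM (counts per 1000000 reads) in the control and 1962 with overexpression, and Flt4 at 107 and 130. The cultured BEC libraries also held Lyve1, at 604 CPM in the control and 1061 with overexpression, and Flt4 at 144 and 98.3, while Prox1 had no read. The skin libraries named BEC held Prox1 at 147 CPM in Cont and 79.7 in cKO, and Lyve1 at 1027 and 1801, although Lyve1 positive cells had been removed. BEC and LEC are therefore used as the names on the labels. Endothelial markers were abundant in all 6 libraries, with summed levels of 4178 to 8339 CPM over 12 genes.

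With 1 library per condition no difference could be tested against replicate error, and each value describes the libraries compared. Intervals are exact and 95% wide, and cover counting error only. Levels are given in CPM, and a count of 3 reads, taken as the floor, corresponds to 0.0967 to 0.338 CPM. The 10 genes together took 268 CPM in skin Cont BECs, 197 in cKO BECs, 262 in Cont LECs, 629 in OE-LECs, 712 in cultured Cont BECs and 502 in OE-BECs.

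**Figure D1:**
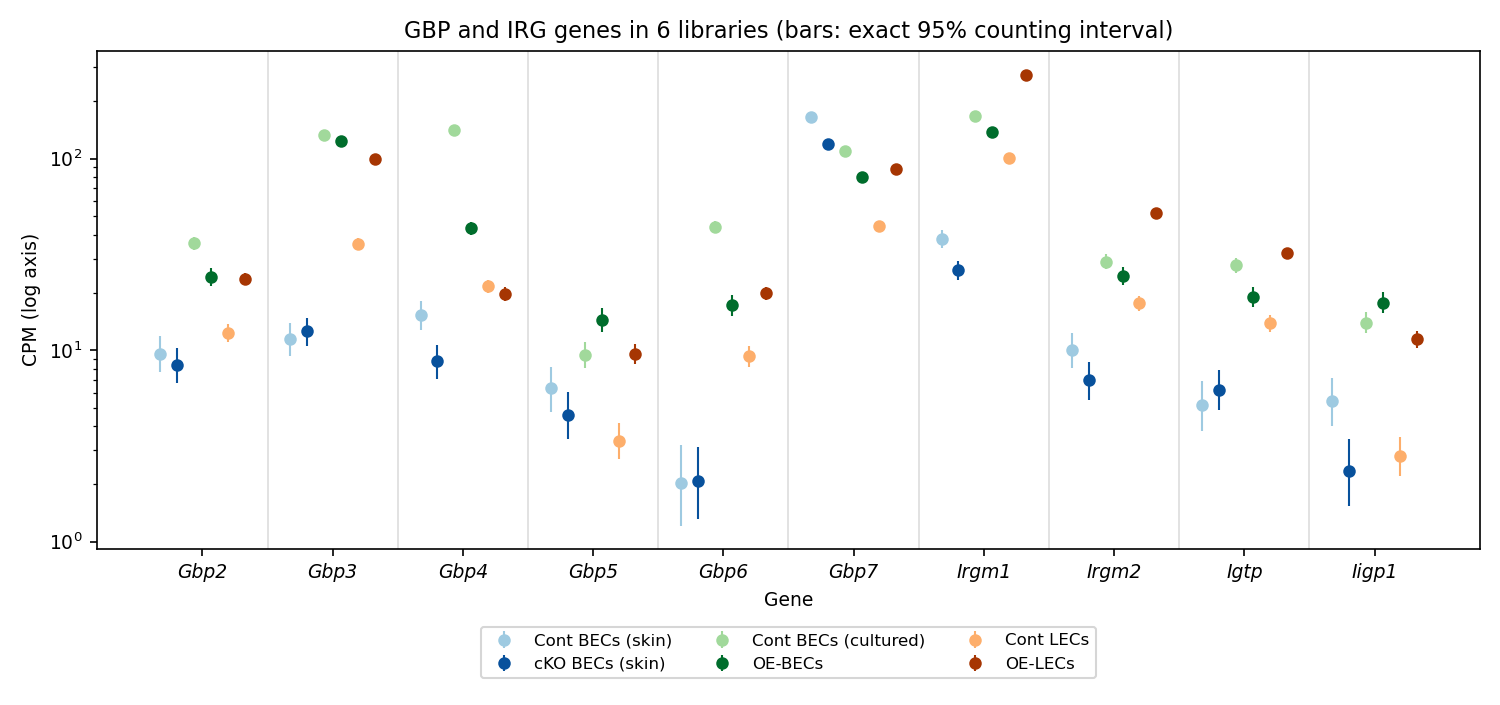
Level of each of the 10 genes in the 6 libraries, in CPM on a log axis. Points are single libraries and bars are exact 95% counting intervals. Gbp7 is highest in the skin control at 164 CPM, Irgm1 in OE-LECs at 273 CPM and Gbp4 in cultured Cont BECs at 141 CPM.

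Among the regulatory IRGs, Irgm1 is a membrane-bound protein of Golgi, lysosome and mitochondria that protects host membranes and supports autophagy. Its gene lies at chr11:48861968-48871683 on the minus strand (mm10). Irgm1 was measured at 38.0 CPM in skin Cont BECs, 26.1 in cKO BECs, 101 in Cont LECs, 273 in OE-LECs, 167 in cultured Cont BECs and 137 in OE-BECs. No neighbouring levels in this order had overlapping intervals. Irgm2, a regulator of the Golgi membranes, lies at chr11:58199618-58222782 on the plus strand. It was at 10.04 CPM in skin Cont BECs, 6.95 in cKO BECs, 17.6 in Cont LECs, 51.9 in OE-LECs, 29.0 in cultured Cont BECs and 24.4 in OE-BECs. The skin libraries overlapped each other, and so did the cultured BEC libraries. Igtp, also named Irgm3, is a regulator at the endoplasmic reticulum and lies at chr11:58199556-58207591 on the plus strand. It stood at 5.19 CPM in skin Cont BECs, 6.22 in cKO BECs, 13.8 in Cont LECs, 32.1 in OE-LECs, 27.8 in cultured Cont BECs and 18.9 in OE-BECs. Its skin levels overlapped, as did those of OE-LECs and cultured Cont BECs. All 3 regulators were thus highest in OE-LECs and lowest in skin. The Irgm2 and Igtp models overlap on the same strand, so reads in the overlap may have been split between them.

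Iigp1, also named Irga6, is an effector IRG that coats the vacuole of Toxoplasma. Its gene is at chr18:60376027-60392634 on the plus strand. Iigp1 was measured at 5.42 CPM in skin Cont BECs, 2.35 in cKO BECs, 2.80 in Cont LECs, 11.4 in OE-LECs, 13.9 in cultured Cont BECs and 17.7 in OE-BECs. The effector differed in order from the regulators, since OE-BECs ranked first and Cont LECs ranked next to cKO BECs, with overlapping intervals. The intervals of cultured Cont BECs overlapped those of OE-BECs and of OE-LECs.

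The GBPs lie in gene clusters. Gbp2, Gbp3, Gbp5 and Gbp7 lie within chromosome 3 on the plus strand. Gbp2, at chr3:142620602-142638008, encodes a lipid-anchored GBP that attacks the Toxoplasma vacuole. It was at 9.59 CPM in skin Cont BECs, 8.39 in cKO BECs, 12.3 in Cont LECs, 23.6 in OE-LECs, 36.2 in cultured Cont BECs and 24.2 in OE-BECs. OE-BECs and OE-LECs overlapped, as did the skin libraries, and Cont LECs overlapped skin Cont BECs. Gbp3, at chr3:142560026-142573209, encodes a GBP that also gathers on parasite vacuoles. Gbp3 stood at 11.4 CPM in skin Cont BECs, 12.5 in cKO BECs, 36.0 in Cont LECs, 99.7 in OE-LECs, 133 in cultured Cont BECs and 124 in OE-BECs. Cultured Cont BECs therefore held 11.7 times the level of skin Cont BECs, and the levels overlapped within the skin pair and within the cultured BEC pair.

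Gbp5, at chr3:142493978-142522344, is a lipid-anchored GBP known for promoting inflammasome assembly. Its levels were 6.32 CPM in skin Cont BECs, 4.60 in cKO BECs, 3.37 in Cont LECs, 9.57 in OE-LECs, 9.44 in cultured Cont BECs and 14.4 in OE-BECs. Only the highest level, that of OE-BECs, was clear of its neighbour, and every neighbouring pair below it overlapped. Gbp7, at chr3:142530342-142550149, is known for helping to assemble the NADPH oxidase on phagosomes. It was measured at 164 CPM in skin Cont BECs, 119 in cKO BECs, 44.6 in Cont LECs, 88.3 in OE-LECs, 110.1 in cultured Cont BECs and 80.2 in OE-BECs. Gbp7 alone among the 10 was highest in skin Cont BECs, with a level in cultured Cont BECs of 0.670 of that in skin. Cultured Cont BECs overlapped cKO BECs, and OE-LECs overlapped OE-BECs. Its range was the narrowest of the 10, the highest level being 3.69 times the lowest.

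Gbp4 and Gbp6 lie on the minus strand of chromosome 5. Gbp4, at chr5:105115767-105139586, encodes a GBP known to hold back IRF7 activation. It was at 15.2 CPM in skin Cont BECs, 8.75 in cKO BECs, 21.5 in Cont LECs, 19.7 in OE-LECs, 141 in cultured Cont BECs and 43.3 in OE-BECs. Cultured Cont BECs stood far above all other libraries, and the LEC libraries overlapped. Gbp6, at chr5:105270702-105293698, has been tied to defence against Listeria in macrophages. It stood at 2.03 CPM in skin Cont BECs, 2.07 in cKO BECs, 9.30 in Cont LECs, 19.9 in OE-LECs, 44.2 in cultured Cont BECs and 17.2 in OE-BECs. This was the widest range of the 10, the highest level being 21.8 times the lowest, and OE-LECs overlapped OE-BECs as the skin libraries overlapped each other. Of the 75-base stretches of Gbp6, 67.3% occur in another gene, chiefly Gm43302 and Gbp10, so that reads may have been assigned among these copies and the Gbp6 values are uncertain. For Gbp7 the share was 11.3%, for Gbp4, Gbp3, Gbp2 and Gbp5 between 0.578% and 3.08%, and for Irgm1 and Iigp1 it was 0. The annotated models of Gbp4, Gbp8 and Gbp9 overlap on the same strand.

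Levels of different genes were compared per kb of exon length. In both skin libraries Gbp7 ranked first, at 29.3 CPM per kb in Cont and 21.2 in cKO BECs, ahead of Irgm1 at 6.54 and 4.49. In cultured BECs Gbp3 ranked first, at 40.8 CPM per kb in Cont BECs and 38.1 in OE-BECs, ahead of Irgm1 at 28.7 and 23.6. In LECs the order was turned, with Irgm1 first at 17.4 CPM per kb in Cont LECs and 47.0 in OE-LECs, and Gbp3 next at 11.02 and 30.5. The lowest of the 10 per kb was Gbp6 in both skin libraries, Gbp5 in the cultured BEC libraries and in OE-LECs, and Iigp1 in Cont LECs.

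Between the controls, cultured Cont BECs exceeded skin Cont BECs in CPM for 9 of the 10 genes, against 41.0% of all genes counted at 10 reads or more in the pair. The ratio ran from 1.49 for Gbp5 to 21.8 for Gbp6 among these 9, beside 0.670 for Gbp7. Cultured Cont BECs also exceeded Cont LECs for each of the 10, against 43.5% of all genes, by 1.65 times for Irgm1 and Irgm2 and by up to 6.55 times for Gbp4. These differences are between a tissue and culture or between cell lines, each with 1 library, and origin and condition of growth cannot be told apart.

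To find which genes of the family differed with Dot1l overexpression in LECs, OE-LECs were compared with Cont LECs. Of the 10 genes, 9 were higher in OE-LECs with intervals above 0, and Gbp4 was level. Log2 ratios of normalized counts (changed library over control, scaled by median of ratios) ran from -0.11 for Gbp4 to 2.05 for Iigp1, with a median of 1.34 beside 0.00 over the 13028 genes with at least 10 reads. Medians here and below add 1 to each normalized count. By the rule of the study, a more than 3-fold difference with a higher normalized count of at least 3, Iigp1 rose and no member fell. Over all genes this rule called 2.77% higher and 2.09% lower, so 1 of 10 carries little weight. Past 2-fold higher were 8 of 10 members, against 4.98% of all genes, and past 2-fold lower none, against 4.26%. An interval above 0 was found in 9 of 10 members, against 24.2% of genes, and an interval below 0 in none, against 21.4%. The members are related genes in the same libraries and are not replicates of each other.

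The effector Iigp1 went from 73 reads in the control to 354, a log2 ratio of 2.05 (1.68 to 2.43). Among the regulators, Irgm1 had 2642 and 8482 reads with a log2 ratio of 1.45 (1.39 to 1.52). Irgm2 counts were 459 and 1610, with a ratio of 1.58 (1.43 to 1.73). All 3 regulators stood at 2.35-fold or more, and Irgm2, at 2.99-fold, was the member just outside the threshold. Igtp, with the near-identical promoter window, followed at 361 and 995 reads with log2 1.23 (1.06 to 1.41).

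Of the GBPs on chromosome 3, Gbp5 had the highest ratio in OE-LECs, with 88 and 297 reads and log2 1.52 (1.18 to 1.88). Gbp3 followed with 940 and 3095 reads and log2 1.49 (1.38 to 1.60). The other members of this cluster had lower ratios. Gbp7 had 1164 and 2739 reads and log2 1.004 (0.90 to 1.10), and Gbp2 had 321 and 732 reads and log2 0.96 (0.77 to 1.15). The members of chromosome 5 differed from each other. Gbp6 had 243 and 616 reads and log2 1.11 (0.89 to 1.33), whereas Gbp4 had 562 and 610 reads and log2 -0.11 (-0.28 to 0.06). In rank over all genes with at least 10 reads, the 9 higher members lay between the 96.7th and 99.3rd percentile and Gbp4 at the 29.4th.

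Genes of the pathway were described from lists, beside the same background. Of 20 type I interferon induced genes, 10 were called higher in OE-LECs and none lower, 19 had intervals above 0, and the median was 1.74. The largest was Oas2, an enzyme of RNA sensing, at 173 and 3261 reads (log2 4.01). Of 19 interferon gamma induced genes, 11 reached the minimum count. Of these, 2 were called higher (Nlrc5 and Cxcl10) and 1 lower (Icam1, with 14 and 4 reads). The median was 1.05 over the 10 with at least 10 reads. Among other GBP, IRG and GVIN genes, 15 had at least 10 reads and a median of 1.11, and Tgtp1 (25 and 135 reads) and Gm4951 (4 and 19 reads) were called higher. Of the Tgtp1 sequence 77.2% is shared with another gene, so its value is uncertain.

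Of the 12 relays of the signal, 7 had intervals above 0 (24.2% of all genes) and 2 below, 3 were past 2-fold higher (4.98% of all genes), and the median was 0.19. Irf7, the amplifier of type I interferon genes, was the 1 called higher, with 766 and 5679 reads and log2 2.66 (2.55 to 2.77). Stat2 and Irf9, which act at ISRE elements, had ratios of 0.75 (0.68 to 0.81) and 0.73 (0.61 to 0.85). Irf1, through which interferon gamma acts on GBP genes, had a ratio of 0.20, Jak2 of 0.00, and the receptor chains Ifngr1 and Ifngr2 of 0.18 and -0.05. Usp18, which brakes type I receptor signalling, was called higher (596 and 2841 reads, log2 2.02), and the brakes Socs1 and Socs3 had ratios of 0.27 and 0.28, none past the rule. Ifng had no read in any of the 6 libraries. Ifnb1 was at 1 read in the control and 5 in the OE library, and although the fold rule called it, its interval of -1.07 to 7.65 holds 0. Of 19 vacuole and inflammasome partners in the table, such as Atg5 and Gsdmd, none was called, and the median was 0.17.

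Markers of other cells were low in both LEC libraries. The macrophage list summed to 96.8 CPM in Cont LECs and 84.6 in OE-LECs over 14 genes, of which Cd68 took 93.2 and 80.2. Adgre1 was at 0 in both, and the T and NK cell list summed to 0.38 and 0.45 CPM over 12 genes. Endothelial markers had a median log2 ratio of -0.27, with 10 of 12 intervals below 0, and Vwf was called lower. Their part in the member ratios was not tested.

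**Figure D2:**
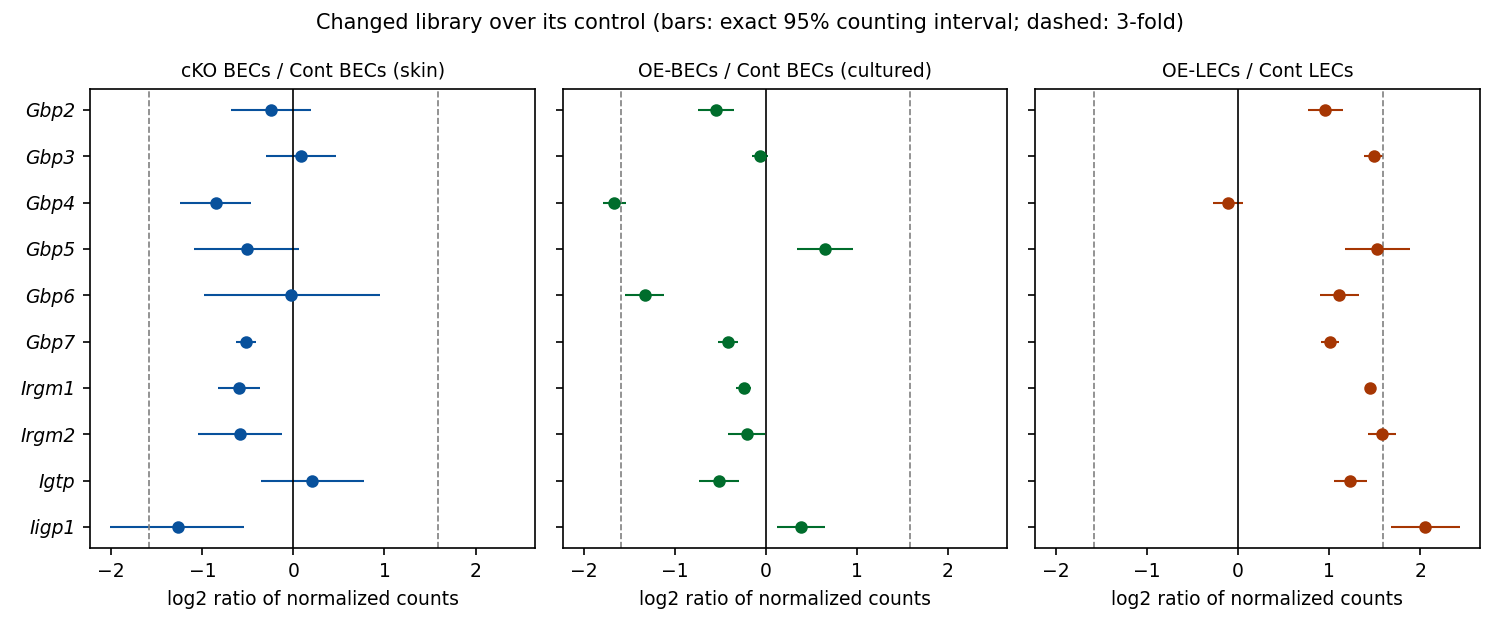
Log2 ratio of normalized counts for each gene in the 3 comparisons, with exact 95% counting intervals as bars and dashed lines at 3-fold. In the OE-LEC panel 9 of 10 genes lie above 0, while in the OE-BEC panel Gbp4 and Gbp6 lie farthest below 0, at -1.66 and -1.33.

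For overexpression in BECs, OE-BECs were compared with cultured Cont BECs. Here 8 of the 10 genes had ratios below 0 and Gbp5 and Iigp1 above it. Gbp4 fell, at 2493 reads in the control and 604 with overexpression, or log2 -1.66 (-1.79 to -1.53) and 3.17-fold. It was the 1 member called lower, and none was called higher. The nearer limit of its interval lies inside 3-fold. The rule called 5.27% of all genes lower and 8.02% higher. Past 2-fold were 2 members, Gbp4 and Gbp6, against 8.81% of genes, so neither count stands out from the background. Intervals lay below 0 for 7 members, against 30.0% of genes, above 0 for 2, against 27.4%, and held 0 for Gbp3. The median of the members was -0.33 beside -0.01 over 13396 genes.

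Gbp6 came next to Gbp4 with 782 and 239 reads and log2 -1.33 (-1.54 to -1.12), or 2.51-fold. Both are chromosome 5 genes, and both rank low among all genes, Gbp4 at the 2.73rd and Gbp6 at the 4.28th percentile. The chromosome 3 members stood closer to 0. Gbp2 had 641 and 337 reads and log2 -0.54 (-0.74 to -0.35), and Gbp7 had 1947 and 1118 reads and log2 -0.42 (-0.52 to -0.31). Gbp3 had 2358 and 1732 reads, and its log2 ratio of -0.06 (-0.15 to 0.03) was not distinguishable from 0 at this depth. Gbp5, the inflammasome-linked GBP, went the other way with 167 and 201 reads and log2 0.65 (0.35 to 0.96).

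The IRGs had small ratios in OE-BECs. Among the regulators Igtp had 491 and 264 reads and log2 -0.51 (-0.73 to -0.29). Irgm1 had 2949 and 1912 reads and log2 -0.24 (-0.33 to -0.16), and Irgm2 had 513 and 340 reads and log2 -0.21 (-0.41 to -0.01). The effector Iigp1, with 246 and 247 reads, had a log2 ratio of 0.39 (0.13 to 0.65), the libraries differing in depth. Iigp1 thus differed in sign from Irgm1, Irgm2 and Igtp in BECs and shared their sign in LECs. It is a single gene and does not stand for the effectors as a class. Among the other GBP, IRG and GVIN genes, 14 had at least 10 reads in the BEC pair. Their intervals lay below 0 for 7, against 30.0% of all genes, and above 0 for 1, against 27.4%. Gbp8, Gbp10, Gbp11 and Gm12250 (12 and 2 reads) were called lower and none higher, where the rule called 5.27% of all genes lower. Ifi47 had 134 and 66 reads and log2 -0.64 (-1.09 to -0.20). The 1 with an interval above 0 was 9930111J21Rik1, at 44 and 90 reads and log2 1.42 (0.88 to 1.97). Of its sequence 76.0% is shared with another gene.

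Beside these values, Irf1 had a log2 ratio of -0.28 and Ifngr2 of -0.59, while Ifngr1 stood at 0.05, Jak2 at 0.21, Socs1 at 0.48 and Socs3 at 0.23. None was called among the 11 relays, 5 ligands and receptors and 8 brakes that reached the minimum count, and the medians of these lists were -0.22, -0.36 and 0.20. The type I list had a median of -0.06 with Oasl1 called higher and Mx1 lower, and the interferon gamma list one of 0.18 with Cxcl10 and H2-Aa called higher (H2-Aa at 0 and 3 reads). Vacuole and inflammasome partners had none called and a median of -0.12. Endothelial markers were also lower in OE-BECs, from 8339 to 5018 CPM in sum, with 11 of 12 intervals below 0, a median of -0.56 and Flt1, Cldn5 and Vwf called lower. Rn45s, the ribosomal precursor, took 5.91% of reads in cultured Cont BECs and 10.9% in OE-BECs. The macrophage list summed to 68.1 and 36.0 CPM, of which Cd68 alone took 61.8 and 32.2, with Adgre1 at 0. The part of these differences in the member ratios was not tested.

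The GBP genes were also set out by cluster, a grouping chosen after their values were seen. The table held 5 Gbp genes of chromosome 3 (Gbp2b being the one outside the 10) and 6 of chromosome 5 (with Gbp8, Gbp9, Gbp10 and Gbp11). In OE-BECs the chromosome 5 genes had log2 ratios of -2.04 to -1.06, with 6 of 6 intervals below 0 (30.0% of all genes) and a median of -1.64. On chromosome 3 the ratios were -0.54 to 0.65 with a median of -0.34, so the ranges of the clusters did not overlap. In OE-LECs chromosome 3 gave 0.96 to 1.51, with 5 of 5 intervals above 0 (24.2% of all genes). Chromosome 5 gave -1.04 to 1.18, with intervals above 0 for Gbp6 and Gbp9 only. The ends of this range were Gbp11 (8 and 4 reads) and Gbp10 (4 and 12 reads), whose intervals hold 0. Gbp9, with 8429 and 3095 reads in the BEC pair, a log2 ratio of -1.06 (-1.12 to -1.0), had the highest level per kb of the 6 in every library but stood at 0.14 in OE-LECs (4119 and 5311 reads). Gbp8, with 233 and 57 reads in the BEC pair, was called lower at -1.65, as were Gbp10 (25 and 4 reads) and Gbp11 (31 and 7 reads), where the rule called 5.27% of all genes lower. As with Gbp6, 77.8% of Gbp10 is shared with other genes and its count is uncertain. Since the models of Gbp4, Gbp8 and Gbp9 also overlap, the chromosome 5 ratios may not be separate measurements.

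**Figure D3:**
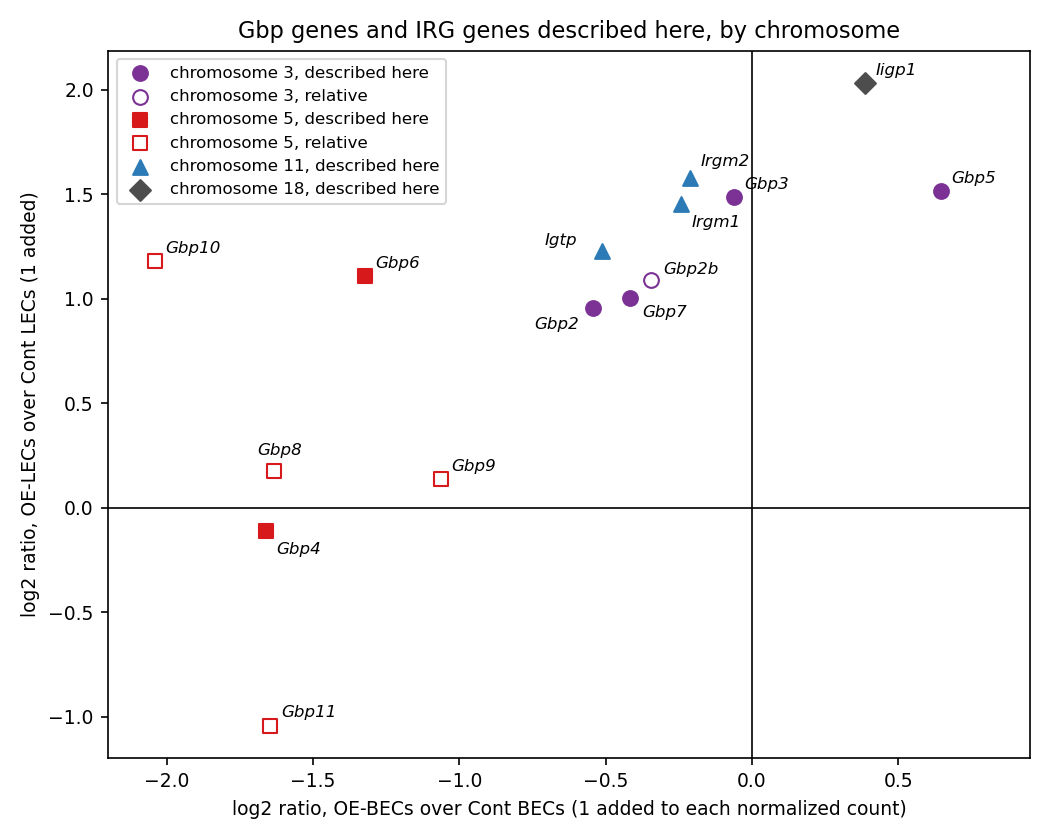
Log2 ratio in OE-BECs (x axis) against that in OE-LECs (y axis), with 1 added to each normalized count, for the 10 genes (filled) and the other 5 Gbp genes (open), marked by chromosome. The 6 chromosome 5 genes lie at -1.06 or lower on the x axis, and the 5 of chromosome 3 lie right of them and at 0.96 or higher on the y axis.

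Loss of Dot1l in the embryo was addressed by comparing cKO BECs with skin Cont BECs. No member was called in either direction, where the rule, here with a minimum of 5 normalized counts, called 5.17% of genes higher and 2.41% lower. Ratios were below 0 for 8 of 10 members, with Gbp6 at -0.02 turning to 0.03 when scaled by total counts, and intervals for 5, against 25.4% of all genes. None had an interval above 0, against 23.1%. The median was -0.51 beside 0.00 over 15554 genes. Past 2-fold lower was Iigp1 alone, against 5.23% of genes, and past 2-fold higher none, against 10.4%.

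Iigp1, the effector, had 48 reads in skin Cont BECs and 26 in cKO BECs, with a log2 ratio of -1.26 (-2.01 to -0.54). The wide interval reflects the few reads. Irgm1 had 337 and 289 reads and log2 -0.60 (-0.83 to -0.37), and Irgm2 had 89 and 77 reads and log2 -0.59 (-1.05 to -0.13). The regulator Igtp did not share this, with 46 and 69 reads and log2 0.21 (-0.35 to 0.78). Of the GBPs, Gbp4 had 135 and 97 reads and log2 -0.85 (-1.25 to -0.47). Gbp7, the most abundant member in skin, had 1456 and 1319 reads and log2 -0.52 (-0.63 to -0.41), the tightest interval of the comparison. For the remaining 4 GBPs a difference was not detectable at this depth. Gbp5 had 56 and 51 reads (log2 -0.51, -1.09 to 0.06), Gbp2 85 and 93 (-0.25, -0.69 to 0.19), Gbp3 101 and 139 (0.08, -0.30 to 0.47) and Gbp6 18 and 23 (-0.02, -0.98 to 0.95).

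Cell type markers moved with this comparison. Endothelial markers summed to 6648 CPM in skin Cont BECs and 4178 in cKO BECs, with 11 of 12 intervals below 0 and a median log2 ratio of -0.70. Macrophage markers summed to 4037 and 6599 CPM, with 13 of 14 intervals above 0 and a median of 0.84, although F4/80 and CD45 positive cells had been depleted. Lymphatic markers summed to 2984 and 3459 CPM, with log2 ratios of 0.75 for Lyve1 and -0.94 for Prox1, 4 of 8 intervals below 0 and 2 above. T and NK cell markers summed to 20.5 and 40.4 CPM but went both ways, with 3 intervals above 0 and 3 below. Among them Nkg7 and Gzmb were called higher, and Cd3e, Cd3g and Prf1 lower. Mast cell markers summed to 2627 and 3785 CPM, with 4 intervals above 0 and 1 below. For keratinocyte markers the sums were 244 and 388 CPM, with 5 intervals above 0 and 2 below. For fibroblast and pericyte markers they were 2826 and 2094 CPM, with 1 interval above 0 and 8 below. Fewer cells of a type and less RNA per cell cannot be told apart in such bulk libraries, and the part of these shifts in the member ratios was not tested. Among the relays Irf1 fell, with 1116 and 429 reads and log2 -1.76 (-1.92 to -1.60), and among the brakes Socs3 fell, with 1021 and 317 reads and log2 -2.07 (-2.25 to -1.88). Jak2 was at -0.26, Ifngr1 at 0.06, Ifngr2 at 0.15 and Socs1 at -0.06, none past the rule. The type I list had a median of 0.06 with Ifi44 called lower (100 and 20 reads). The interferon gamma list had a median of 0.63 with Nlrc5, Cxcl9 (2 and 15 reads) and the class II gene H2-Ab1 called higher. Of its intervals 10 lay above 0 and 3 below, the latter for Cxcl10 (log2 -1.24), Nos2 (-0.72) and Icam1 (-0.54). Among the other GBP, IRG and GVIN genes, Gbp2b had 14 reads in Cont and 0 in cKO BECs, at least 4.31-fold lower. The pseudogene Gm1966 rose from 5 to 222 reads. Gm4841, with 1 and 6 reads, was also called higher, but its interval of -0.84 to 7.73 holds 0. Partners at vacuoles and inflammasomes had a median of 0.02 and none called.

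**Figure D4:**
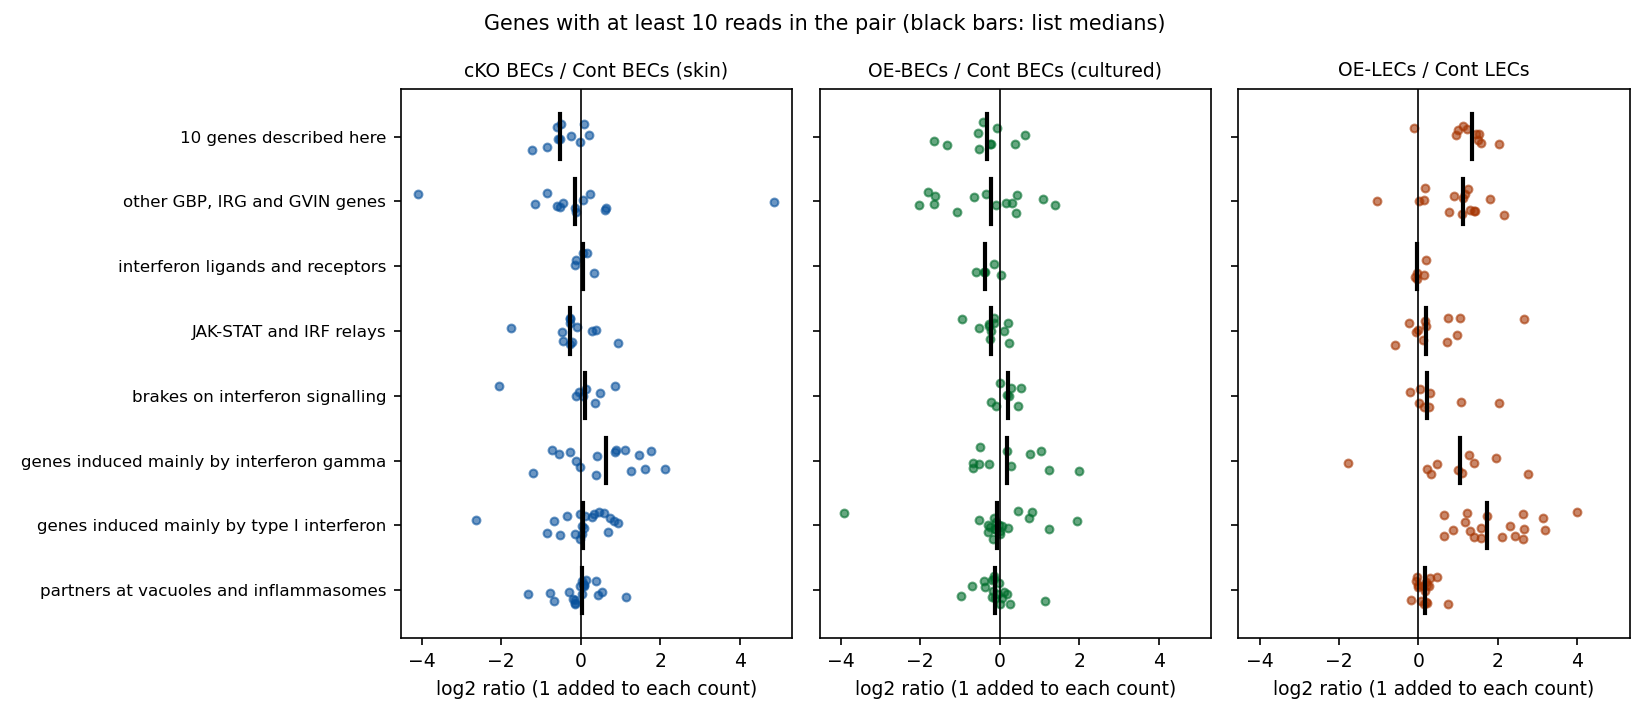
Log2 ratios (1 added to each normalized count) of genes counted at 10 or more reads per pair, for the 10 genes and 7 pathway lists in the 3 comparisons. Points are genes and black bars list medians. The medians of the 10 genes are -0.51, -0.33 and 1.34 from left to right, and that of the type I interferon list is 1.74 in OE-LECs.

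The pattern over all 6 libraries was compared between genes as a description. With log2(CPM + 1) of each gene set against the mean of the other 9, Pearson's r was highest for Gbp2 at 0.99, then 0.96 for Gbp3, 0.95 for Gbp6, 0.92 for Igtp, 0.89 for Irgm1, 0.88 for Irgm2 and 0.87 for Iigp1. It was lower for Gbp4 at 0.77 and Gbp5 at 0.74, and below 0 for Gbp7 at -0.26. Outside the 10, the 8 genes most like their mean among 15251 ranked included Mx2 (r = 0.988), Eif2ak2 (0.985), Ifit3b (0.984), Snx19 (0.983), Helz2 (0.982), H2-T24 (0.979) and 1700052K11Rik (0.976). The 6 points share tissue or cell line in pairs, and the values carry no test.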

How the data were processed

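RNA of 6 libraries, 1 per condition, had been sequenced after ScriptSeq v2 preparation. The authors trimmed reads with skewer, aligned them to mm10 with STAR, counted them per gene with VERSE (option -S) and deposited raw counts for 24421 gene symbols. What this option sets for strand is not given in the sources used here. Each control and changed library were scaled as a pair by median of ratios (DESeq2 1.42.0, R 4.3.3). As in the study, a call needed a more than 3-fold difference, and a larger normalized count no lower than 5 for cKO or 3 for OE. Intervals (95%) are Clopper-Pearson for log2 ratios and exact Poisson for CPM. Both cover counting error only, and no test of a condition was possible. A fold against a library at 0 is a lower bound, taken from a floor of 3 reads or from the nearer interval limit where that is smaller, as for Gbp2b. List medians add 1 to each normalized count and leave out genes under 10 reads per pair. Gene positions and lengths came from GENCODE M21, and promoters from RefSeq. Reads from near-identical copies were judged by 75-base stretches shared between annotated transcripts. Named were all members, Irf1, Ifngr1, Ifngr2, Jak2, Socs1, Socs3, and from each list up to 4 called genes with the largest ratios among those reaching 20 normalized counts. Names beyond this, such as Gbp2b, Gbp9, Gm4841, Stat2 and Irf9, were added after their values were seen. For likeness, the rule took the 8 genes with the highest r and at least 1 CPM in a library. A gene that these rules also chose is not reported here. The members and lists were chosen with earlier results of these data known. Alternatives were TMM scaling (edgeR 4.0.16), total counts, size factors from all 6 libraries, other minimum counts, a 2-fold rule, an interval rule and a pseudocount of 0.1.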

Additional observations from a re-analysis of the deposited data

Results flagged for a closer look

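The members whose ratios had intervals on opposite sides of 0 in the overexpression comparisons were 6 of 10, all above 0 in OE-LECs and below 0 in OE-BECs, against 5.13% of the 12570 genes with 10 reads or more in both pairs, or 9.51% counting either direction. For Gbp2 the log2 ratio was 0.96 in OE-LECs and -0.54 in OE-BECs, for Gbp6 1.11 and -1.33, and for Gbp7 1.004 and -0.42. For Irgm1 it was 1.45 in OE-LECs and -0.24 in OE-BECs, for Irgm2 1.58 and -0.21, and for Igtp 1.23 and -0.51. The upper limit for Irgm2 in OE-BECs was only -0.01. With size factors from all 6 libraries its ratio moved to -0.19, so its place in the count is marginal. Gbp6 is uncertain, with 67.3% of its stretches shared with other genes. Each value compares 1 library with 1 library, so the difference between the cell lines was not tested.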

How the results depend on the processing

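No paired analysis was possible because each condition has 1 library, and for the same reason none could be left out in turn. Under TMM, total counts and size factors from all 6 libraries, the 30 member ratios kept their sign except Gbp6 in cKO BECs (-0.02, and 0.03 by total counts), the members called by the 3-fold rule remained Gbp4 and Iigp1, and the members' median stayed within -0.51 to -0.46 in cKO BECs, -0.37 to -0.31 in OE-BECs and 1.32 to 1.34 in OE-LECs. Scaling moved the median of all genes by at most 0.055.
Counts of calls depended on the rule. Against 827 higher and 386 lower genes in cKO BECs, a minimum of 20 normalized counts gave 372 and 153, no minimum 1833 and 1160, a 2-fold rule 1657 and 837, and an interval past 3-fold 144 and 65. Against 1186 and 779 in OE-BECs, the minimum of 20 gave 222 and 261, no minimum 2086 and 1531, the 2-fold rule 1303 lower, and the interval rule 84 and 140. Against 385 and 290 in OE-LECs, size factors from all 6 libraries gave 246 and 168, the minimum of 20 gave 109 and 51, no minimum 1437 and 849, the 2-fold rule 692 and 591, and the interval rule 60 and 18. Of the members, the 2-fold rule called 1 lower in cKO BECs, 2 lower in OE-BECs and 8 higher in OE-LECs, and the interval rule left 0 lower in OE-BECs. The looser or stricter rules change these counts by construction. Size factors from all 6 libraries were 1.65 for Cont LECs and 1.94 for OE-LECs, against 0.92 and 1.08 from the pair. The same minimum of 3 normalized counts therefore asked for more reads in these libraries. How much of the lower counts of calls this makes up was not tested. Depth limits the skin values most, where 8 members had 139 reads or fewer in each library.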
